A study of Mus musculus with 12 samples.

Results

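The genes described here build and regulate the actin cytoskeleton: actins, conventional myosins, proteins that sit along the thin filament, filament crosslinkers and adhesion proteins, turnover factors, membrane linkers and the transcription factor Srf. The 38 genes were chosen by name, and every array spot annotated with one of those symbols was taken, which gave 41 spots among the 22393 spots of the array and 38 of its 16504 named genes. Flna, Myl9 and Pdlim7 had more than 1 spot each. A spot was tested if no drug had more than 1 empty cell for it over its 4 arrays, which held for 38 spots of 36 genes. Lmod1, Cfl1 and 1 of the Myl9 spots had too many empty cells and are described without a test.

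The samples were RNA of cultured mouse cells treated with pioglitazone, a thiazolidinedione that activates the nuclear receptor PPARγ, with telmisartan or with irbesartan, both blockers of the type 1 angiotensin receptor. Each of the 12 arrays compared a pool of 3 treated cultures with a pool of 3 vehicle-treated cultures in its 2 dye channels, with 4 arrays for each drug; dyes were swapped, the odd-numbered arrays (1 and 3) holding drug RNA in channel 1 and the even-numbered ones (2 and 4) in channel 2. The labels used here name neither the cell type, the strain, the dose nor the duration. Whether a drug's 4 arrays came from a single pair of pools, and whether vehicle RNA was common to the 3 drugs, is likewise not given. The p-values therefore rest on array-to-array spread, part or all of which can be technical. All values below are log2 ratios of drug over vehicle, in which 0 is no difference and negative values are lower with the drug. Which channel was the numerator is not stated and the direction is likely rather than certain. It was read as channel 2 over channel 1, because 11 of the 14 thiazolidinedione-induced genes that differed by 1.5-fold or more on the pioglitazone arrays were then higher with the drug, and 3 lower. Of all 23 such genes measured, whatever the size of the difference, 15 were higher and 8 lower. Among those lower by 1.5-fold or more were the fat cell genes Lpl and Adipoq, at -1.116 and -0.949 with pioglitazone. Both go against the direction chosen. The list of thiazolidinedione-induced genes was written with earlier results of these data known, so these counts are not independent support for the direction. Under the other reading every gene called higher would be lower, and the reverse.

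Actin monomers assemble into filaments, on which myosin motors, driven by phosphorylation of their light chains, generate tension. Tropomyosins, calponins and transgelins line the filament and set access to it, while actinins and filamins link filaments and join them to adhesions. Monomeric actin holds back the cofactors of serum response factor, so filament assembly is coupled to transcription of actin and contractile genes, and in fat cell precursors the loss of stress fibres accompanies differentiation.

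On each array 17877 to 20721 spots carried a value, and 38 to 40 of the 41 member spots did. A large fraction of all features passed the test: the share of the 17217 features tested with an adjusted p under 0.05 was 49.9% for pioglitazone, 41% for telmisartan and 31.3% for irbesartan. Counts of members are therefore given beside these shares, and also under a second rule that adds a change of at least 1.5-fold.

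Many of the structural genes of the contractile apparatus were lower with each drug, among them Myl9, Cnn2, Lima1, Zyx, Cald1, Myh9, the 5 actins and 1 of the 2 Flna spots. Others did not pass the test, and a few isoforms of the same families were higher. With pioglitazone 27 of the 38 tested spots (71.1%) passed the test, 22 of them lower and 5 higher, where 26.3% of all features were lower and 23.6% higher. With telmisartan 26 spots (68.4%) passed, 21 lower and 5 higher, beside 21.1% and 19.9% of all features. With irbesartan 26 spots (68.4%) passed, again 21 lower and 5 higher, beside 16.9% and 14.4% of all features. Under the second rule the counts were 8 spots for pioglitazone, 6 for telmisartan and 2 for irbesartan, every one of them lower, against 3.7%, 1.45% and 1.09% of all features called lower by that rule. With arrays scaled to one spread the counts under this rule were 6, 5 and 7. The median of the tested member spots was -0.19 for pioglitazone, -0.14 for telmisartan and -0.14 for irbesartan, whereas the median of all features was within 0.005 of 0 for each drug. Values below -0.3 were held by 15 member spots (39.5%) for pioglitazone, 15 (39.5%) for telmisartan and 11 (28.9%) for irbesartan, compared with 12.1%, 8.09% and 5.64% of all features.

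**Figure D1:**
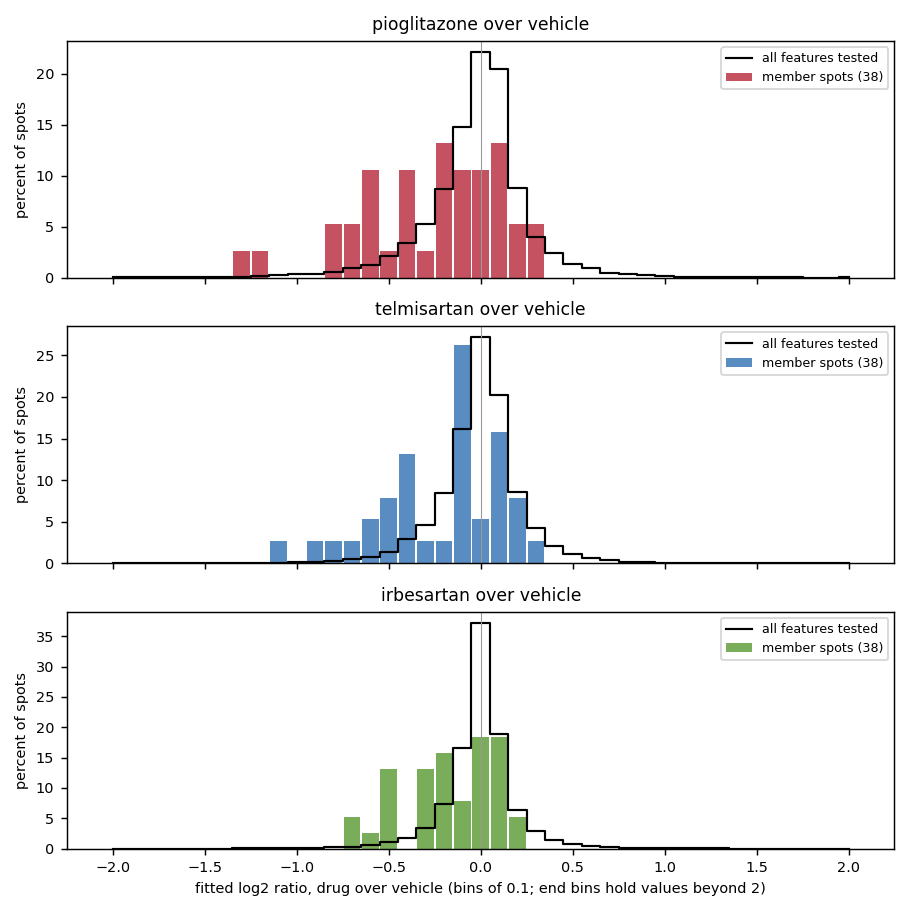
Share of spots (percent, vertical axis) by fitted log2 ratio of drug over vehicle (horizontal axis, bins of 0.1), with bars for the 38 tested member spots and a line for the 17217 features tested. The bars reach further to the left than the line for each drug, with 15, 15 and 11 member spots below -0.3 for pioglitazone, telmisartan and irbesartan.

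Cell type markers were read beside these values. Of 15 fibroblast and preadipocyte markers 12 were tested, and 12 of 12 fell with each drug, between -1.82 and -0.52 with pioglitazone, between -1.22 and -0.25 with telmisartan and between -1.17 and -0.30 with irbesartan. Dcn, which encodes the matrix proteoglycan decorin, was at -1.82, -1.22 and -1.17 on the log2 scale in that order of drugs. Smooth muscle and pericyte markers that are not members gave 1 higher and 2 lower of 10 spots with pioglitazone, 1 and 2 with telmisartan, and 0 and 0 with irbesartan in the limma fit (0 at an unadjusted p under 0.05). Fat cell markers gave 3 higher and 8 lower of 13 spots with pioglitazone, 2 and 6 with telmisartan, and 5 and 4 with irbesartan. Beside these counts, 23.6% of all features were higher and 26.3% lower with pioglitazone, 19.9% and 21.1% with telmisartan, and 14.4% and 16.9% with irbesartan. The files hold ratios and no levels, so absence of a marker could not be seen, and the part of these cell types in the results was not tested. In bulk RNA, fewer cells of a type and less RNA per cell cannot be told apart.

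The RefSeq promoter table (build GRCm38.p6, 250 bases before to 50 after each start) held 34 of the 38 genes, and did not match Tagln, Actb, Myh11 or Actg2. The binding motif of serum response factor, the CArG box, was searched in these windows. Only its exact form of 10 bases was counted: CC, then A or T at each place, then GG. That form is its own reverse complement, so that 1 search covers both strands, and no other motif was searched. A box with a mismatch or outside the window would be missed. An exact box was present in 8 of the 34 genes (23.53%), against 488 of all 27025 genes with a window (1.81%). The stretches that hold it are shown because most of these genes are among the members with the lowest ratios and because Myl6 and Vcl, which also hold it, are not; capitals mark the box, with up to 50 bases on each side, 5′ to 3′ on the strand of the gene.
Myl9, chr2:156775253-156775362, plus strand: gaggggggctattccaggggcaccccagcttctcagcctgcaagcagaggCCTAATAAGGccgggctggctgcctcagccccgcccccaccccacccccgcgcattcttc
Cnn2, chr10:79988494-79988603, plus strand: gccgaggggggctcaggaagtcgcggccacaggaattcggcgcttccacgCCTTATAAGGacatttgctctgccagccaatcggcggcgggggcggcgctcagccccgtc
Acta1, chr8:123894789-123894898, minus strand: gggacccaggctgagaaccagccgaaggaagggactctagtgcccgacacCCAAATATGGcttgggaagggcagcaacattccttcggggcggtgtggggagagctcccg
Actg1, chr11:120348526-120348635, minus strand: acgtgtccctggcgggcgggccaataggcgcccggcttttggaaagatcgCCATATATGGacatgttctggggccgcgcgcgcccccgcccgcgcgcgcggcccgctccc
Lima1, chr15:99820137-99820246, minus strand: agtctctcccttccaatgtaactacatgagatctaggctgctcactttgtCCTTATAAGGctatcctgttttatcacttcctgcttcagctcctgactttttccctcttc
Srf, chr17:46556165-46556294, minus strand: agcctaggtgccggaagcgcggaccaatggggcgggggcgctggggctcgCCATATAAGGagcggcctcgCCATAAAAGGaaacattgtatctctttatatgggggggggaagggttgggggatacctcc
Myl6, chr10:128493000-128493109, minus strand: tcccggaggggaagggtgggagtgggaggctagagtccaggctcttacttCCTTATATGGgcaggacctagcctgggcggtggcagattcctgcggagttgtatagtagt
Vcl, chr14:20929148-20929230, plus strand: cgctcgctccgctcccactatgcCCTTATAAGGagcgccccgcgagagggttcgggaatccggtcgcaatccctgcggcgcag

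The box began between 47 bases (Lima1) and 227 bases (Vcl) upstream of the annotated start, and the Srf promoter held 2 boxes. With each drug 6 of the 8 spots of these genes were lower, namely Myl9, Cnn2, Acta1, Actg1, Lima1 and Srf. The Srf calls and the irbesartan call of Acta1 were lost under some other fits, as described below. Of the 26 tested spots whose windows had no exact box, 12 were lower with pioglitazone, 11 with telmisartan and 11 with irbesartan. Over all features tested 26.3% were lower with pioglitazone, 21.1% with telmisartan and 16.9% with irbesartan. The medians were -0.66, -0.48 and -0.36, and those of the spots without one were -0.09, -0.08 and -0.04, in the order pioglitazone, telmisartan, irbesartan. A match describes letters in a window and shows no binding, and the members were chosen for a shared function, so this is a description only.

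All 5 actin genes fell with each drug. Acta2, the smooth muscle α-actin of stress fibres, read -0.43, -0.63, -0.57 and -0.58 on pioglitazone arrays 1 to 4, -0.71, -0.46, -0.62 and -0.59 on the telmisartan arrays, and -0.21, -0.36, -0.29 and -0.35 on the irbesartan arrays. Every array was below 0, and the 4 irbesartan arrays lay above the 4 of each of the other drugs. The fitted values were -0.55 ± 0.04 for pioglitazone, -0.60 ± 0.04 for telmisartan and -0.30 ± 0.04 for irbesartan (standard errors, n = 4 arrays each; limma, adjusted p 1.28e-06, 1.32e-06 and 0.000281). Actg1, the cytoplasmic γ-actin, was the lowest actin for telmisartan and irbesartan: its arrays ran from -0.69 to -0.58 for pioglitazone, from -0.80 to -0.55 for telmisartan and from -0.66 to -0.49 for irbesartan. Those 3 ranges overlap, and the fits were -0.64, -0.70 and -0.57 with a standard error of 0.03 each. Actb, the cytoplasmic β-actin often used as a reference gene, fell by 0.43, 0.51 and 0.27 on the log2 scale (adjusted p 1.26e-07, 9.14e-08 and 1.1e-05), which is 1.35-fold, 1.42-fold and 1.21-fold lower.

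The muscle actins followed the same direction. Acta1, the skeletal α-actin, read -0.65, -0.71, -0.70 and -0.70 with pioglitazone, -0.28, -0.45, -0.32 and -0.69 with telmisartan, and -0.27, -0.25, -0.31 and -0.05 with irbesartan. The pioglitazone arrays were close together, whereas telmisartan array 4 lay well below the other 3 and irbesartan array 4 above them. Its irbesartan fit of -0.22 (adjusted p 0.0158) missed the threshold without irbesartan array 1, 2 or 3 (adjusted p 0.0827, 0.0548 and 0.0944). Actg2, the enteric γ-actin, fell by 0.42, 0.46 and 0.22. The actin genes are close relatives and the probe sequences were not used here, so which isoform RNA each spot reads was not tested.

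**Figure D2:**
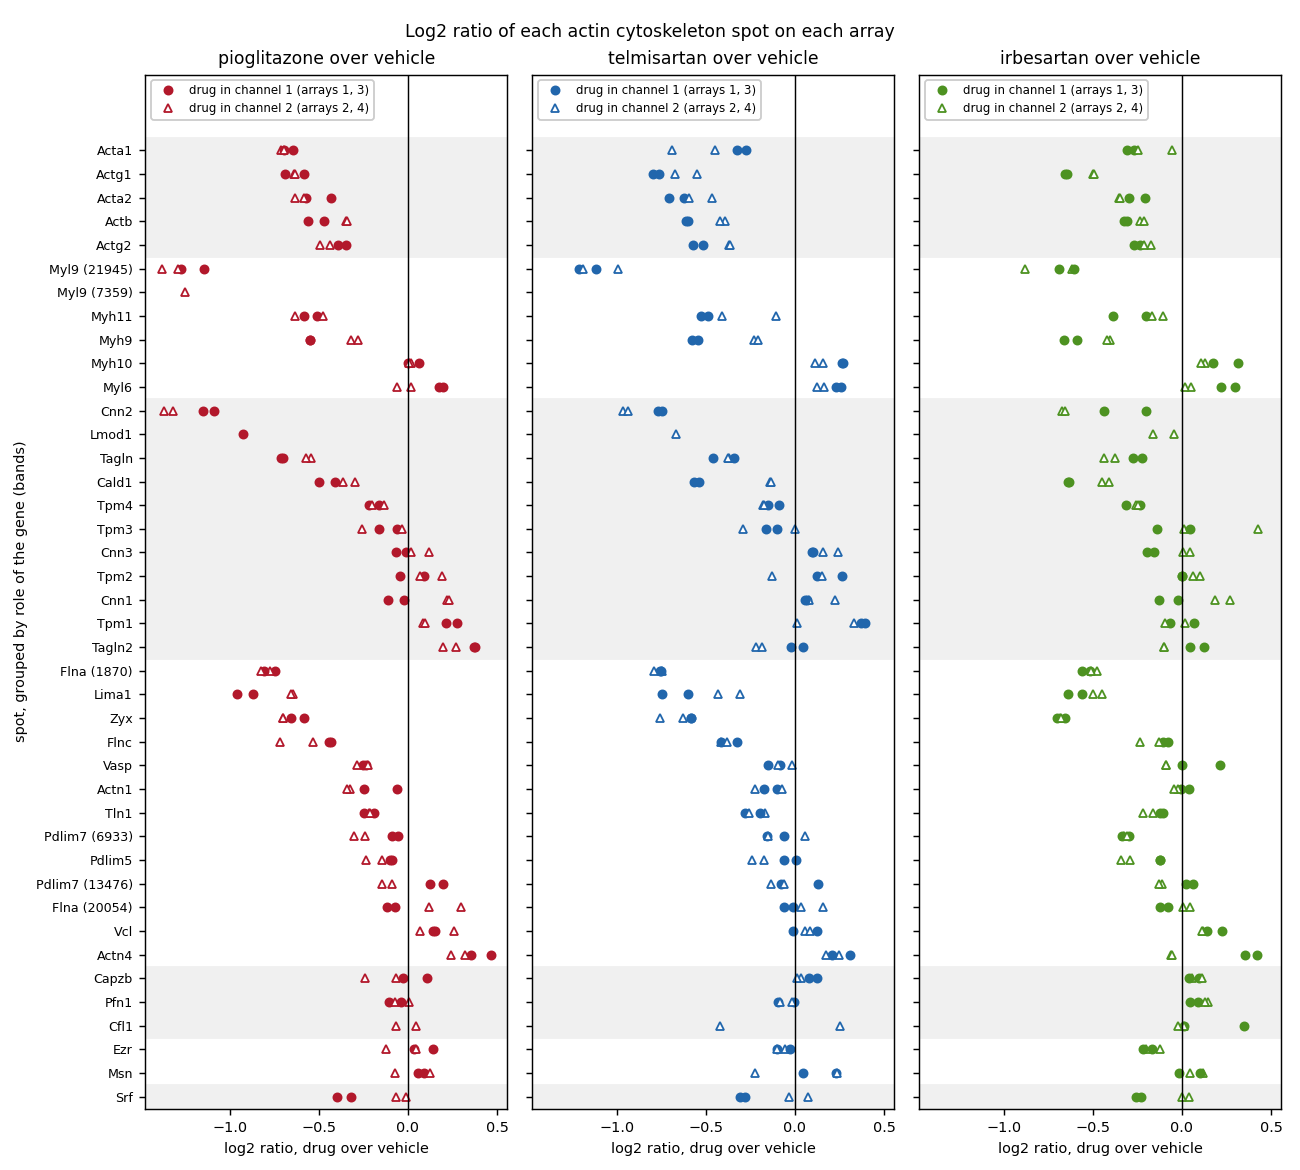
Log2 ratio of drug over vehicle (horizontal axis) for each of the 41 member spots (vertical axis, grouped by role in grey and white bands), 1 point per array, filled where the drug was in channel 1 and open where it was in channel 2. Myl9 and Cnn2 lie furthest left with pioglitazone, and the points of Srf separate by channel with each drug.

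Among the myosins, the light chain Myl9 and the heavy chains Myh9 and Myh11 fell with each drug, while Myl6 and Myh10 had positive values. Myl9 encodes the regulatory light chain whose phosphorylation switches smooth muscle and nonmuscle myosin on, and it had the lowest ratio of the tested members for each drug. It read -1.14, -1.38, -1.27 and -1.29 with pioglitazone, -1.21, -0.99, -1.12 and -1.19 with telmisartan, and -0.69, -0.62, -0.60 and -0.88 with irbesartan. The irbesartan arrays did not overlap with those of the other drugs. The fits of -1.27, -1.13 and -0.70, each with a standard error of 0.05, correspond to 2.41-fold, 2.19-fold and 1.62-fold lower RNA (limma, adjusted p 7.61e-09, 4.64e-08 and 1.93e-06). Its other spot had a value on pioglitazone array 4 alone, where it read -1.25.

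Myh11, the smooth muscle heavy chain, fell by 0.55 with pioglitazone, by 0.38 with telmisartan and by 0.21 with irbesartan. The irbesartan call for Myh11 was lost without irbesartan array 2 or 3 (adjusted p 0.05 and 0.0735). Myh9, the heavy chain of nonmuscle myosin IIA, read -0.55, -0.32, -0.55 and -0.28 with pioglitazone, -0.54, -0.23, -0.58 and -0.21 with telmisartan, and -0.66, -0.40, -0.59 and -0.42 with irbesartan. With each drug the arrays with the drug in channel 1 were lower than those with it in channel 2, and the fits that allow for this were -0.42, -0.39 and -0.52, each with a standard error of 0.03 (adjusted p 1.81e-07, 6.92e-07 and 1.38e-07). Myh10, the heavy chain of nonmuscle myosin IIB, rose instead with telmisartan (0.20, adjusted p 0.000263) and irbesartan (0.18, adjusted p 0.000694) and was 0.02 with pioglitazone (adjusted p 0.601). Myl6, the essential light chain, rose by 0.08, 0.19 and 0.15. The pioglitazone call for Myl6 was lost without pioglitazone array 1, 2 or 3 (adjusted p 0.0907, 0.118 and 0.113), and without the dye term so was the irbesartan call (adjusted p 0.0915).

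Of the proteins that line the thin filament, Cnn2, Tagln, Cald1 and Tpm4 fell with each drug and the rest differed by isoform. Cnn2, the calponin of nonmuscle and smooth muscle cells, read -1.09, -1.37, -1.15 and -1.32 with pioglitazone, -0.75, -0.96, -0.77 and -0.94 with telmisartan, and -0.44, -0.67, -0.20 and -0.66 with irbesartan. The 3 sets of arrays did not overlap. The fits were -1.23, -0.85 and -0.49 with a standard error of 0.04 each, or 2.35-fold, 1.81-fold and 1.41-fold lower (limma, adjusted p 8.69e-10, 3.36e-08 and 2.32e-06). The other calponins gave other values. Cnn1, the smooth muscle calponin, was at 0.08, 0.11 and 0.08 and passed the test for none of the drugs (adjusted p 0.132, 0.0545 and 0.2). Cnn1 did pass for telmisartan without telmisartan array 2 (0.16, adjusted p 0.00477). Cnn3, the acidic calponin, rose by 0.15 with telmisartan (adjusted p 0.00151) and was at 0.01 with pioglitazone and -0.07 with irbesartan.

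Tagln, the actin-bundling protein SM22α, read -0.70, -0.54, -0.71 and -0.57 with pioglitazone, -0.34, -0.37, -0.46 and -0.37 with telmisartan, and -0.23, -0.37, -0.27 and -0.44 with irbesartan. The pioglitazone arrays lay below all the others, and the telmisartan and irbesartan arrays overlapped. The fits were -0.63, -0.39 and -0.33, each with a standard error of 0.04 (adjusted p 2.87e-07, 2.34e-05 and 0.000104). Tagln2, its more widely expressed relative, went the other way with pioglitazone, at 0.37, 0.20, 0.37 and 0.27, against -0.02, -0.22, 0.05 and -0.19 with telmisartan and 0.12, -0.10, 0.05 and -0.10 with irbesartan. All 4 pioglitazone arrays of Tagln2 stood above the 8 others. It rose by 0.30 with pioglitazone (adjusted p 2.12e-06), fell by 0.10 with telmisartan (adjusted p 0.0108, but 0.233 without the dye term) and was at -0.01 with irbesartan.

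Cald1, which encodes caldesmon, an inhibitor of actin-activated myosin, fell by 0.39, 0.34 and 0.53 with pioglitazone, telmisartan and irbesartan. The tropomyosins, which stabilise the filament, split by gene. Tpm4 fell by 0.18, 0.15 and 0.26 (adjusted p 0.000165, 0.00091 and 1.67e-05), and its 12 arrays lay between -0.31 and -0.09. Tpm1 rose by 0.17 with pioglitazone and by 0.28 with telmisartan (adjusted p 0.0148 and 0.000881) and was at -0.02 with irbesartan; without pioglitazone array 1 its pioglitazone call was lost (adjusted p 0.0628). Tpm2 (0.08, 0.10 and 0.04) and Tpm3 (-0.13, -0.14 and 0.09) passed the test for none of the drugs with all 12 arrays, although Tpm2 passed for telmisartan without telmisartan array 2 (0.19, adjusted p 0.00465). Lmod1, a leiomodin that nucleates filaments in smooth muscle, had 4 values in all: -0.92 on pioglitazone array 3, -0.67 on telmisartan array 4, and -0.16 and -0.04 on irbesartan arrays 2 and 4.

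**Figure D3:**
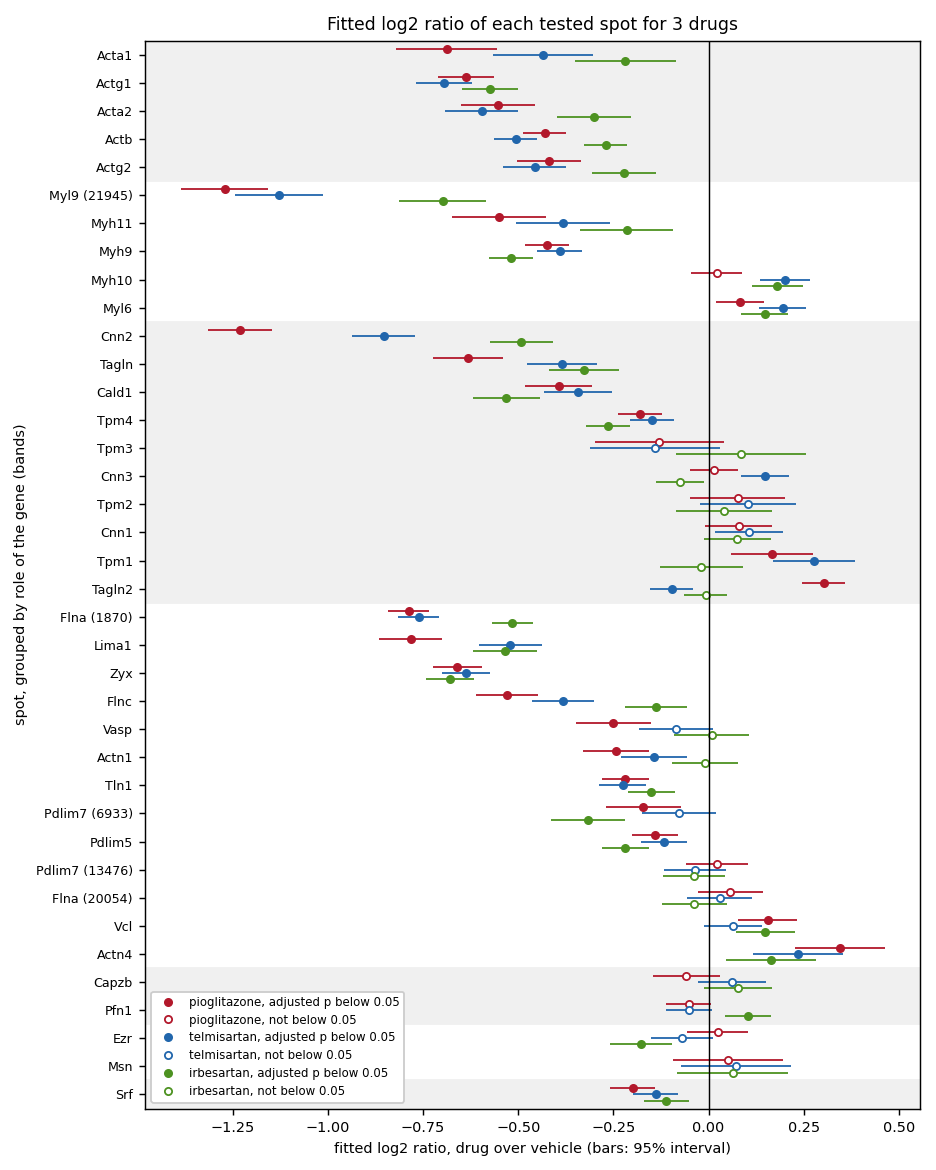
Fitted log2 ratio of drug over vehicle (horizontal axis) with 95% interval for each of the 38 tested spots (vertical axis, grouped by role) and each drug; filled points had an adjusted p below 0.05. The actins, Myl9, Cnn2, Flna (spot 1870), Lima1 and Zyx lie left of 0 for each drug, and Tagln2 is to the right of 0 past the test for pioglitazone alone.

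Crosslinkers and adhesion proteins were mostly lower. Flna, the filamin that joins filaments into networks and anchors them to the membrane, had 2 spots with different results. Spot 1870 read -0.75, -0.77, -0.81 and -0.82 with pioglitazone, -0.75, -0.75, -0.75 and -0.79 with telmisartan, and -0.52, -0.48, -0.56 and -0.51 with irbesartan. Spot 20054 of Flna ranged from -0.12 to 0.30, from -0.06 to 0.15 and from -0.12 to 0.05 on the same arrays. The first spot had fits of -0.79, -0.76 and -0.52, with a standard error of 0.02 each and adjusted p 8.84e-10, 5e-09 and 7.66e-08 in limma. The other spot was at 0.06, 0.03 and -0.04 and did not pass (adjusted p 0.253, 0.589 and 0.554). Both spots of Flna carry the same accession, and which of them reads the transcript more closely was not tested. Flnc, the muscle filamin, fell by 0.53 with pioglitazone, by 0.38 with telmisartan and by 0.14 with irbesartan, and the last of these calls was lost without irbesartan array 1 or 4 (adjusted p 0.0614 and 0.0784).

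Zyx encodes zyxin, a tension-sensing protein of focal adhesions and stress fibres. It read -0.58, -0.70, -0.66 and -0.70 with pioglitazone, -0.58, -0.76, -0.58 and -0.63 with telmisartan, and -0.66, -0.69, -0.70 and -0.68 with irbesartan. The 3 ranges overlapped throughout, with fits of -0.66, -0.64 and -0.68, each with a standard error of 0.03, or 1.58-fold, 1.56-fold and 1.60-fold lower (adjusted p 1.18e-08, 3.74e-08 and 3.98e-08). Lima1, the filament-stabilising LIM protein also called EPLIN, read -0.87, -0.64, -0.96 and -0.66 with pioglitazone, -0.75, -0.31, -0.60 and -0.43 with telmisartan, and -0.56, -0.50, -0.64 and -0.45 with irbesartan. Here the arrays with the drug in channel 1 were lower than those with it in channel 2 for each drug, and the fits were -0.78, -0.52 and -0.54. Tln1, the talin that links integrins to actin, fell by 0.22, 0.23 and 0.15, and Pdlim5, a PDZ and LIM domain adaptor, by 0.14, 0.12 and 0.22. The telmisartan call for Pdlim5 was lost without the dye term (adjusted p 0.112).

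The α-actinins, which bundle filaments, moved apart. Actn1 fell by 0.24 with pioglitazone (adjusted p 0.000313) and by 0.14 with telmisartan (adjusted p 0.0121), and was at -0.01 with irbesartan. Its telmisartan call was lost without telmisartan array 3 or 4 (adjusted p 0.0712 and 0.0557). Actn4 was higher, at 0.36, 0.24, 0.47 and 0.32 with pioglitazone, 0.31, 0.25, 0.21 and 0.17 with telmisartan, and 0.42, -0.06, 0.35 and -0.06 with irbesartan. The irbesartan values followed the channel of the drug, and the fitted rise of 0.16 (adjusted p 0.0386) was lost without irbesartan array 1 (0.11, adjusted p 0.217) or array 3 (0.13, adjusted p 0.173). It was also lost, with adjusted p 0.0538, 0.0534 and 0.0504, without pioglitazone array 2 or 3 or telmisartan array 1, and without the dye term (0.177). For pioglitazone and telmisartan Actn4 rose by 0.34 and 0.24 (adjusted p 0.000269 and 0.0047).

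Vcl encodes vinculin, which couples talin to actin at adhesions, and it rose by 0.16 with pioglitazone and by 0.15 with irbesartan (adjusted p 0.00331 and 0.00669), with 0.06 for telmisartan (adjusted p 0.173). Vasp, a filament elongation factor, fell by 0.25 with pioglitazone (adjusted p 0.000657) and was at -0.09 and 0.01 with telmisartan and irbesartan; without irbesartan array 3 its telmisartan value of -0.09 passed (adjusted p 0.0415). Pdlim7, a PDZ and LIM domain protein of stress fibres, also had 2 spots. Spot 6933 fell by 0.17 with pioglitazone and by 0.32 with irbesartan (adjusted p 0.00758 and 0.000209), with -0.08 for telmisartan, and spot 13476 stood at 0.02, -0.04 and -0.04 with no call. The pioglitazone call was lost without pioglitazone array 4 (-0.13, adjusted p 0.0547), and the telmisartan value of spot 6933 passed without telmisartan array 2 (-0.14, adjusted p 0.0174).

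Genes for filament turnover and membrane linkage had small values. Pfn1, the profilin that delivers actin monomers to growing ends, was at -0.05 with pioglitazone and with telmisartan and rose by 0.10 with irbesartan (adjusted p 0.0129), a call that was lost without irbesartan array 2 or 4 (adjusted p 0.0661 and 0.0563). Capzb, a capping protein subunit, had -0.06, 0.06 and 0.08 and no call. Cfl1, which encodes the severing protein cofilin, had values on 2 pioglitazone arrays (0.04 and -0.07), 2 telmisartan arrays (-0.42 and 0.25) and 4 irbesartan arrays (0.01, 0.01, 0.35 and -0.02). Ezr, which encodes ezrin, a linker of actin to the plasma membrane, fell by 0.18 with irbesartan (adjusted p 0.00308) and was at 0.02 and -0.07 with pioglitazone and telmisartan. Msn, its relative moesin, was at 0.05, 0.07 and 0.06 with no call on all 12 arrays, and passed for telmisartan without telmisartan array 2 (0.17, adjusted p 0.0168).

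Srf, the transcription factor whose CArG boxes are printed above, had a small negative fit with each drug. It read -0.32, -0.01, -0.40 and -0.07 with pioglitazone, -0.31, 0.07, -0.28 and -0.04 with telmisartan, and -0.26, 0.04, -0.23 and 0.00 with irbesartan. The arrays with the drug in channel 1 were the low ones for each drug, and its dye coefficient of 0.15 was the highest of the 38 tested spots. With that term the fits were -0.20, -0.14 and -0.11 (adjusted p 9.04e-05, 0.00166 and 0.0083). Without the dye term none of the Srf calls held in limma (adjusted p 0.078, 0.249 and 0.462), and the irbesartan call was also lost without irbesartan array 4 (adjusted p 0.0558). Across the 38 spots the dye coefficient lay between -0.13 and 0.15, and 7 were beyond 0.1 in size.

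Direct comparison of the drugs asked where members differed in their response. Doses and times are not stated, so the drugs are not known to have been matched, and each difference may also hold a difference between vehicle RNAs. Telmisartan and irbesartan share a biphenyl group, which bears a carboxylic acid in telmisartan and a tetrazole in irbesartan, and pioglitazone has neither. In these 3 comparisons p-values were adjusted over all 17217 features. Pioglitazone and telmisartan differed at 6 of 38 member spots (15.8%), 5 lower and 1 higher with pioglitazone, which is close to the 14.7% of all features called (8.6% lower and 6.07% higher). Pioglitazone and irbesartan differed at 17 spots (44.7%), 15 lower and 2 higher with pioglitazone, beside 10.5% and 7.62% of all features (18.1% in either direction). Telmisartan and irbesartan differed at 11 spots (28.9%), 8 lower and 3 higher with telmisartan, beside 4.42% and 4.96% of all features (9.38% in either direction). Without the dye term these counts were 2, 9 and 3, and with arrays scaled to one spread pioglitazone minus telmisartan had 3. None of the 11 telmisartan minus irbesartan calls held in every alternative.

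The largest difference between drugs among the members was at Cnn2. Its log2 ratio with pioglitazone was 0.74 below that with irbesartan (difference -0.74, 95% interval -0.86 to -0.62, adjusted p 1.29e-05), the only member difference that also exceeded 1.5-fold, where 0.877% of all features were lower by that rule; without pioglitazone array 1 or irbesartan array 4 there were 2 such members, and with arrays scaled to one spread there were 0. The differences of pioglitazone minus telmisartan (-0.38, adjusted p 0.000931) and telmisartan minus irbesartan (-0.36, adjusted p 0.00287) were lost without the dye term (adjusted p 0.0718 and 0.142). Myl9 was lower with pioglitazone than with irbesartan (-0.57, interval -0.74 to -0.41, adjusted p 0.000441) and lower with telmisartan than with irbesartan (-0.43, adjusted p 0.00602, but 0.0698 with arrays scaled to one spread), while pioglitazone minus telmisartan was -0.14 with an interval of -0.31 to 0.02. Tagln2 was higher with pioglitazone than with telmisartan (0.40, interval 0.32 to 0.48, adjusted p 6.26e-05) and than with irbesartan (0.31, interval 0.23 to 0.39, adjusted p 0.000231). Acta1 and Flnc were lower with pioglitazone than with irbesartan, with differences of -0.47 (adjusted p 0.00334) and -0.39 (adjusted p 0.00053). Those 5 pioglitazone minus irbesartan calls, and that of Tagln2 against telmisartan, held under every alternative run by the adjusted p alone.

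Among the actins, Acta2, Actb and Actg2 were less reduced with irbesartan. For Acta2 the difference was -0.25 for pioglitazone minus irbesartan (adjusted p 0.0169) and -0.30 for telmisartan minus irbesartan (adjusted p 0.0146), for Actb -0.16 and -0.24 (adjusted p 0.0114 and 0.00351), and for Actg2 -0.20 and -0.23 (adjusted p 0.0263 and 0.0207). All 6 of these calls were lost in at least 1 alternative, such as scaling (Acta2, adjusted p 0.191 and 0.0515) or no dye term (Actb, 0.248 and 0.144; Actg2, 0.08 and 0.0849). Leaving out pioglitazone array 2 or irbesartan array 1 also ended the first Acta2 call (adjusted p 0.0551 and 0.0562). Flna spot 1870 was lower with pioglitazone and with telmisartan than with irbesartan (-0.27 and -0.25, adjusted p 0.000376 and 0.00227), calls that scaling each array to one spread ended (adjusted p 0.0989 and 0.0702). Lima1 was lower with pioglitazone than with telmisartan and with irbesartan (-0.26 and -0.25, adjusted p 0.0077 and 0.00895), and both calls ended without the dye term (adjusted p 0.199 and 0.201). Tagln was also lower with pioglitazone than with telmisartan or irbesartan (-0.25 and -0.31, adjusted p 0.0175 and 0.00489); the first call ended without pioglitazone array 1 or 3 (adjusted p 0.0541 and 0.0569).

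Zyx and Actg1 were members for which no difference between drugs passed the test. For Zyx the difference was -0.02 for pioglitazone minus telmisartan (95% interval -0.11 to 0.07), 0.02 for pioglitazone minus irbesartan (-0.07 to 0.11) and 0.04 for telmisartan minus irbesartan (-0.05 to 0.13). When each array was divided by its own spread, Zyx was higher with pioglitazone and with telmisartan than with irbesartan by 0.20 each (adjusted p 0.00561 and 0.00808). For Actg1 the intervals were -0.05 to 0.16, -0.17 to 0.04 and -0.23 to -0.02 in the same order of comparisons. The remaining calls were, for pioglitazone minus telmisartan Myh10 and Cnn3, for pioglitazone minus irbesartan Myh10, Myh11, Actn1, Vasp, Pfn1 and Ezr, and for telmisartan minus irbesartan Cnn3, Tpm1, Flnc, Pdlim7 (spot 6933) and Pfn1. Differences among them ran from -0.18 (Myh10) to -0.13 (Cnn3) for pioglitazone minus telmisartan. For pioglitazone minus irbesartan they were -0.34 for Myh11, -0.26 for Vasp, -0.23 for Actn1, -0.16 for Myh10 and for Pfn1, and 0.20 for Ezr. For telmisartan minus irbesartan they were -0.25 for Flnc, -0.15 for Pfn1, 0.22 for Cnn3, 0.24 for Pdlim7 and 0.30 for Tpm1. Each of these calls was lost in at least 1 alternative. The counts themselves depended on single arrays: without pioglitazone array 1 pioglitazone minus telmisartan had 3 calls, and without telmisartan array 1 or irbesartan array 4 telmisartan minus irbesartan had 7. All 12 tested fibroblast and preadipocyte marker spots were lower with pioglitazone than with telmisartan, and all 12 were lower than with irbesartan. Between telmisartan and irbesartan 1 of the 12 was lower with telmisartan. Member spots were called at 15.8%, 44.7% and 28.9% in these comparisons in turn, beside 14.7%, 18.1% and 9.38% of all features. The part of the markers in the result was not tested.

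**Figure D4:**
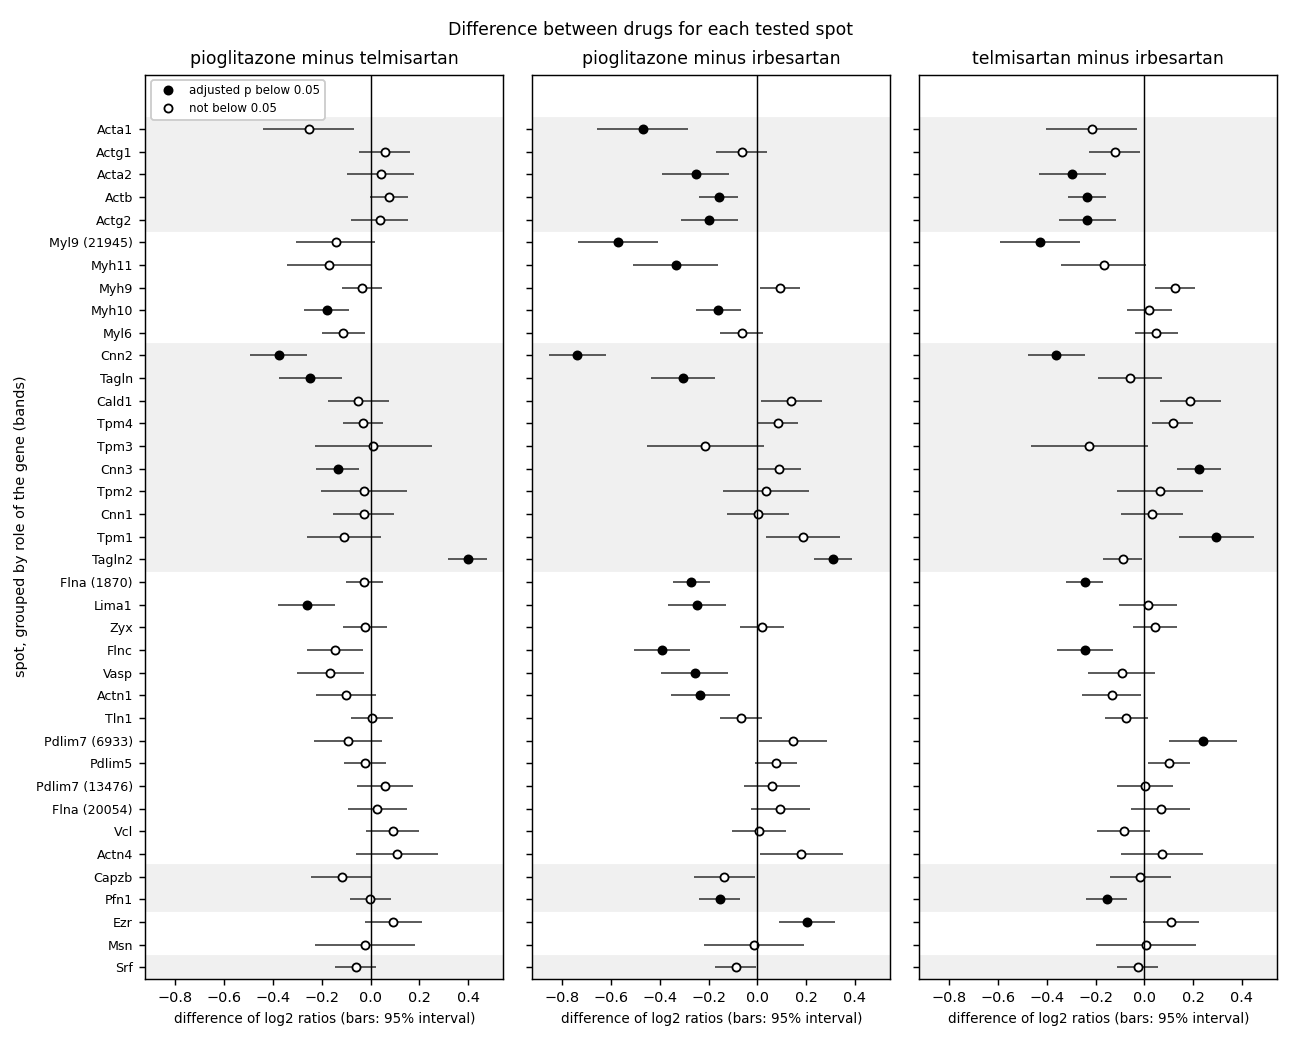
Difference between drugs of the fitted log2 ratio (horizontal axis) with its 95% interval for each of the 38 tested spots (vertical axis, grouped by role), 1 panel per comparison; filled points had an adjusted p below 0.05. Filled points number 6 for pioglitazone minus telmisartan, 17 for pioglitazone minus irbesartan and 11 for telmisartan minus irbesartan, and Cnn2 lies furthest left in the first pair of panels.

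Other genes of the actin system that are not members were read from 5 lists. Genes of filament nucleation and branching gave 3 higher and 9 lower of 14 spots with pioglitazone, 3 and 5 with telmisartan, and 1 and 6 with irbesartan. Beside these and the following counts stand the shares of all features tested: 23.6% higher and 26.3% lower with pioglitazone, 19.9% and 21.1% with telmisartan, and 14.4% and 16.9% with irbesartan. Diaph2, a formin that elongates filaments, fell by 0.66, 0.48 and 0.54 at 1 spot and by 0.57, 0.24 and 0.30 at the other, and Arpc1b, a subunit of the branching actin-related protein complex, fell by 0.56, 0.43 and 0.45. Genes of filament turnover and capping were mixed, with 7 higher and 9 lower of 20 spots, 7 and 6, and 7 and 7, in the order pioglitazone, telmisartan, irbesartan. Within that list Gsn, the severing protein gelsolin, fell by 1.30, 0.72 and 0.82 on the log2 scale (limma, adjusted p 2.18e-10, 3.74e-08 and 2.7e-08), and with pioglitazone its value was below that of every tested member. Tmsb4x, the monomer-binding thymosin β4, fell by 0.32, 0.69 and 0.54, while Limk1, the kinase that inactivates cofilin, rose by 0.68, 0.25 and 0.58.

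Adhesion and actin linkage genes gave 6 higher and 16 lower of 27 spots with pioglitazone, 5 and 15 with telmisartan, and 5 and 15 with irbesartan, where 26.3%, 21.1% and 16.9% of all features were lower. Pdlim2, a relative of the members Pdlim5 and Pdlim7, fell by 0.86, 0.51 and 0.50, and Pdlim4 by 0.70, 0.43 and 0.23. Tln2, the relative of the talin Tln1, fell by 0.77, 0.69 and 0.57 at 1 spot and by 0.36, 0.22 and 0.20 at the other. Tns1, a tensin of focal adhesions, had 3 spots that disagreed, with 1 at 0.64, 0.52 and 0.53 and another at 0.31, -0.36 and 0.19. Unconventional myosins and spectrins gave 3 higher and 6 lower of 12 spots, 2 and 4, and 1 and 5, and 1 spot of the spectrin Sptbn1 fell by 0.36, 0.30 and 0.27.

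Cofactors and targets of serum response factor outside the member list had medians close to 0: 5 spots were higher and 5 lower of 15 with pioglitazone, 3 and 7 with telmisartan, and 3 and 4 with irbesartan. The medians of these 15 spots were -0.02, -0.02 and -0.08. Fhl1, a LIM-only protein of muscle, fell by 0.61, 0.71 and 0.44, and the matricellular gene Ccn1 fell by 0.31, 0.30 and 0.25. Csrp2, a LIM protein of smooth muscle, rose by 0.67, 0.51 and 0.43. Des, which encodes desmin, the intermediate filament of muscle, fell by 0.83 with pioglitazone and by 0.33 with telmisartan and was at -0.04 with irbesartan (adjusted p 1.14e-05, 0.0105 and 0.824). Fhl2, a relative of Fhl1, fell by 1.08 with pioglitazone (standard error 0.24, adjusted p 0.00275) and was at 0.04 and -0.36 with telmisartan and irbesartan without a call. Egr1, an immediate early factor, rose by 0.39 with pioglitazone (adjusted p 0.000118), fell by 0.50 with telmisartan (adjusted p 2.81e-05) and was at -0.10 with irbesartan (adjusted p 0.235). Junb did not pass with pioglitazone (adjusted p 0.97) and fell by 0.45 and 0.41 with telmisartan and irbesartan. The cofactor Mrtfb rose at both of its spots with each drug (0.32 and 0.17 with pioglitazone, 0.18 and 0.15 with telmisartan, 0.24 and 0.17 with irbesartan), and Mrtfa fell by 0.10 with telmisartan and with irbesartan (adjusted p 0.0466 and 0.0482).

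**Figure D5:**
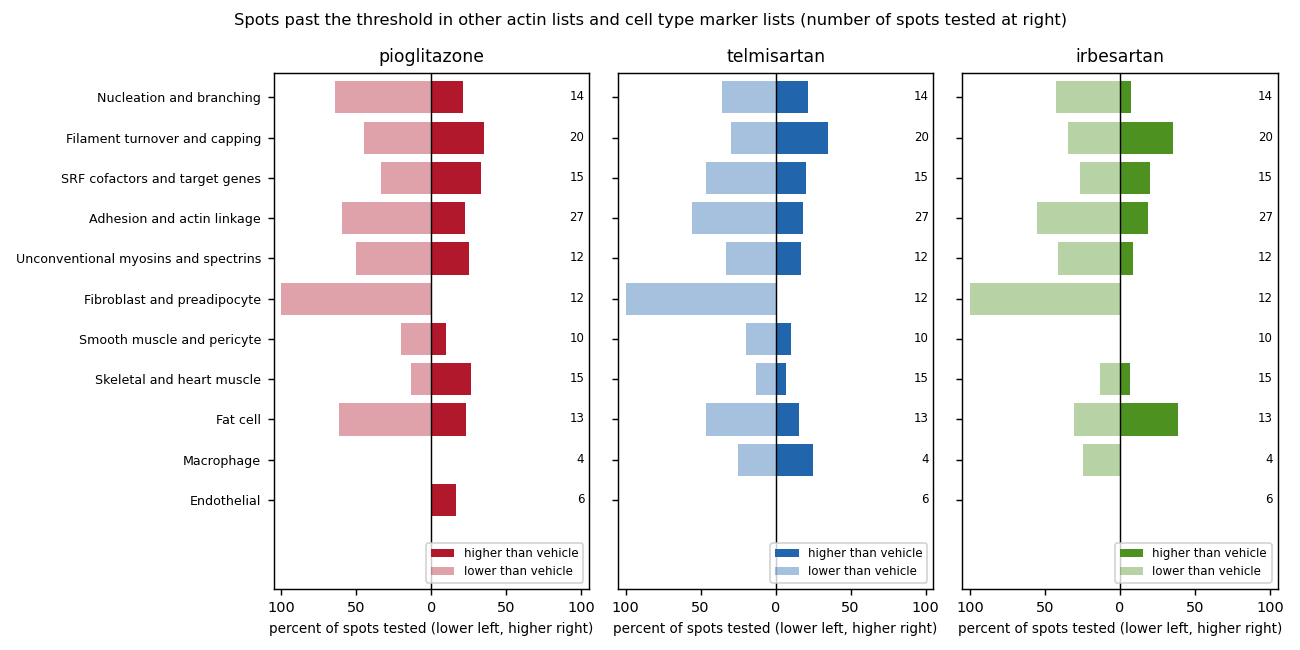
Percent of tested spots past the limma threshold (horizontal axis, lower than vehicle to the left and higher to the right) for 5 other actin lists and 6 cell type marker lists (vertical axis), 1 panel per drug, with the number of spots tested at the right. The fibroblast and preadipocyte bar reaches 12 of 12 spots lower in each panel, while filament turnover and capping genes lie on both sides of 0.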

How the data were processed

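The authors deposited, per the file's values and the labels, a table of log10 ratios for 12 two-colour arrays of 22393 spots; scanner, background correction and normalisation are not given in the sources used here, and array medians lay within 0.00264 of 0. The log10 unit and the direction were read from the values. From this deposited table the log10 ratios were turned to log2 drug over vehicle by each array's labelled channel. Empty cells stayed empty, and 471 spots that behaved like controls and had no gene were left out, 48 sets of repeat spots were averaged and features with values on at least 3 of 4 arrays of each drug were kept (17217). Gene names came from the platform annotation, with 18175 of 18218 single-symbol spots matched to RefSeq by Entrez ID.

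All 12 arrays entered 1 limma fit (version 3.58.1, R 4.3.3) with a coefficient for each drug and a shared dye coefficient. Tests were two-sided, with Benjamini-Hochberg adjustment over all features at 0.05. The procedure was run on simulated data with independent noise and few changed features. A far larger share of features was called over vehicle in the real data, so that run cannot show that these p-values are right. Arrays give no counts, so their number limits the precision. The named genes are all 38 members and, in other lists, up to 4 genes a comparison: those past the threshold with the largest value and one sign on all arrays; Mrtfa, Mrtfb and the other spots of Diaph2, Tln2 and Tns1 were added after their values were seen. The members and lists were chosen with earlier results of these data known. Correlations of deviations between same-numbered arrays exceeded 0.1 in 0 of 12 cases. Same-numbered arrays share a dye order, and the shared dye coefficient pushes these correlations below 0. They therefore cannot show whether array numbers pair the samples, which the labels do not say. No member lay within 0.0015 log10 units of the ratio of Fabp4 on any array. The fit was repeated under other dye terms, filters, scalings, weights, units of replication and a replicate block, and without each array; keeping the control-like spots was added after seeing the data. One further list of actin genes is not reported here.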

Additional observations from a re-analysis of the deposited data

Results flagged for a closer look

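In 4 arrays of a drug, a single array was far from the rest for 2 of the 115 groups examined. The rule flags about 1 in 20 groups of 4 values that differ by random error alone. The arrays of a drug also differ in dye order, so that rate need not apply here. Cfl1 read 0.35 on irbesartan array 3, against -0.02 to 0.01 on the other irbesartan arrays. Cnn1 read 0.23 on telmisartan array 4, against 0.06 to 0.08 on the other telmisartan arrays. Cfl1 was not tested. Cnn1 did not pass with telmisartan on all 12 arrays (adjusted p 0.0545), and it passed in 4 alternatives, for example without telmisartan array 2 (0.16, adjusted p 0.00477).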

How the results depend on the processing

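The counts of members called for each drug over vehicle stayed within 1.5 times under all alternatives for the adjusted p rule, from 25 to 27 for pioglitazone, 22 to 30 for telmisartan and 22 to 27 for irbesartan, and no named value of a tested member that passed changed sign. The drug differences moved more. Without the dye term, pioglitazone minus telmisartan gave 2 calls, pioglitazone minus irbesartan 9 and telmisartan minus irbesartan 3. With arrays scaled to one median absolute deviation, pioglitazone minus telmisartan gave 3, irbesartan over vehicle at 1.5-fold gave 7 and pioglitazone minus irbesartan at 1.5-fold gave 0; this alternative divides each array by its own spread. Leaving out each array in turn gave 3 to 7 calls for pioglitazone minus telmisartan, 7 to 11 for telmisartan minus irbesartan, and 1 to 2 at 1.5-fold for pioglitazone minus irbesartan (2 without pioglitazone array 1 or irbesartan array 4). The array number as a replicate block gave 27, 26 and 25 calls over vehicle and 5, 15 and 8 between drugs. What the number marks is not given by the labels. No array correlated best with its own number, but the shared dye coefficient favours that outcome, so it decides nothing. Of the calls in the full data, 23 of 27 for pioglitazone, 22 of 26 for telmisartan and 19 of 26 for irbesartan held in every alternative, as did 1 of 6, 5 of 17 and 0 of 11 between drugs; where not attributed to fewer arrays or the construction above, the cause was not tested. The number of arrays, empty spots and unstated signal over background limit the small values.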
